A study of Arabidopsis thaliana with 4 samples.

Results

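The 38 genes described here are receptor and receptor-like genes of a 2.46 Mb interval of chromosome 5 of *Arabidopsis thaliana*, from *RPP8* (AT5G43470) to AT5G49140, out of 37336 genes in the table. They are genes annotated with a TIR or an NB-ARC domain, or standing beside such genes in a cluster and resembling parts of them, and they were chosen by annotation, by position and with earlier results of the same comparison known. The values of these genes in *s2lb-2* against wild type are therefore given as a description, with no test read for them. In the TAIR10.1 annotation of RefSeq, 26 of the 38 carry a TIR domain, 31 an NB-ARC domain and 22 both, whereas 3 carry neither: AT5G45500 (an RNI-like protein, the fold of leucine-rich repeats), and AT5G45510 and AT5G45520 (leucine-rich repeat proteins). A TIR or NB-ARC domain is thus annotated for all but those 3, which belong to the set as neighbours of NB-ARC genes. The domain alone does not make a gene an annotated receptor, as with AT5G45070, which is annotated as a phloem protein.

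The RNA-seq experiment compared whole seedlings of wild-type Col-*0* with seedlings of *s2lb-2*, both 6 days old and untreated, with 2 libraries per genotype made from different seed batches. *S2Lb* encodes a homolog of yeast Swd2 and human Wdr82, a WD40 subunit of the COMPASS-like complexes that trimethylate lysine 4 of histone H3. The *s2lb-2* line came from an insertion line in the Nossen background that was crossed 5 times to Col-*0*. *S2Lb* lies on the same chromosome arm, 6.54 Mb beyond the last of the 38 genes, so that loss of *S2Lb* and Nossen sequence kept around it cannot be told apart as sources of a difference, and all reads were mapped on the Col-*0* reference.

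Plant NLR proteins are intracellular immune receptors in which a central nucleotide-binding NB-ARC domain is followed by leucine-rich repeats, and the N-terminal part is a TIR domain (TNL) or a coiled coil (CNL). They detect effectors of pathogens inside the cell, either directly or through the proteins that the effectors modify, and TNL signalling passes through EDS1 with its partners and through helper receptors of the ADR1 and NRG1 families. NLR genes often stand in clusters of near-identical copies that differ between accessions, and some work as head-to-head pairs in which one partner carries an extra domain that acts as bait, as the WRKY domain of RRS1 does beside RPS4.

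The arrangement of the pairs and the likeness of the copies are seen in the genome sequence (TAIR10.1, RefSeq; all sequences are written 5′ to 3′). *RPS4* (AT5G45250, chr5:18321764-18326175, minus strand) and *RRS1* (AT5G45260, chr5:18326203-18332920, plus strand) start 27 bases apart, and a second divergent pair of the same make, *TTR1* (AT5G45050, with a WRKY domain, chr5:18176894-18181973, minus strand) and AT5G45060 (chr5:18182038-18187081, plus strand), is separated by 64 bases. Both gaps are shown on the plus strand because they are all the sequence that lies between the annotated starts of the partners, at chr5:18326176-18326202 and chr5:18181974-18182037, and capitals mark the core of the W-box (TTGAC, read here from the other strand as GTCAA), the element bound by WRKY factors.
*RPS4* to *RRS1*: tgagatttgagtggttgaatgtccaat
*TTR1* to AT5G45060: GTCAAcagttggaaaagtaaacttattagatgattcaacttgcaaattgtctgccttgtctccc

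The next stretch is the 250 bases before the annotated start of AT5G47260, the member with the largest difference between genotypes (chr5:19189161-19189410, plus strand). It holds 2 copies of the TTGAC core, 1 on each strand, in capitals.
AT5G47260: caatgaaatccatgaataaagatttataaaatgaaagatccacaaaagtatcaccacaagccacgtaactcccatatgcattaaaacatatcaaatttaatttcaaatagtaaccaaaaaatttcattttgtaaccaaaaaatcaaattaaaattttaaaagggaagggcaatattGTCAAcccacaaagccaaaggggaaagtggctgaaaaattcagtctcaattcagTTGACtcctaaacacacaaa
The core, sought on both strands, was found in the 250-base window of 21 of the 38 members (55.3%), against 16647 of 37897 windows of the whole genome (43.9%), which is a count of matching letters and not of bound sites.

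In the cluster that holds *RPS6*, copies share long identical runs, which limits what reads of 50 bases can assign to one gene. Exons of *VICTL* (AT5G46510) and *VICTR* (AT5G46520) are shown here at the end of a run of 825 identical bases (chr5:18864089-18864148 and chr5:18871475-18871534, both plus strand), with capitals at the 2 positions where the windows of 60 bases differ.
*VICTL*: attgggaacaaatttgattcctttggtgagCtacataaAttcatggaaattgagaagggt
*VICTR*: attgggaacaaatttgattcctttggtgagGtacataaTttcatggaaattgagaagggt
Between AT5G46260 (chr5:18762400-18762459, minus strand) and AT5G46490 (chr5:18851748-18851807, plus strand) the longest identical run was 300 bases, and the window of 60 bases at its end holds 9 differences.
AT5G46260: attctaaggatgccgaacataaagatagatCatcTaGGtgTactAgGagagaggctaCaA
AT5G46490: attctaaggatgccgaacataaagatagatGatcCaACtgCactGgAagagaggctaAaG

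Of all 50-base words in exons, 100% were unique in the nuclear genome for 24 of the 38 members (63.2%), compared with 76.2% of all genes. Under 99% of the words were unique in 10 members, and the lowest shares were 33.8% for *VICTR*, 50.5% for *VICTL*, 74.1% for AT5G46490, 77.7% for AT5G46260 and 80.2% for *RPP8*. *VICTL* shared 49.5% of its words with *VICTR*, and *VICTR* 61.4% with *VICTL*. AT5G46490 shared 21.1% of its words with AT5G46260, and *RPP8* shared 18.6% with AT5G48620, a CNL gene that lies at the far end of the interval. The counting mode of STAR leaves out reads that map to several places, so the values of these genes rest on the parts of their exons that differ, and they are uncertain as measures of each copy.

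**Figure D1:**
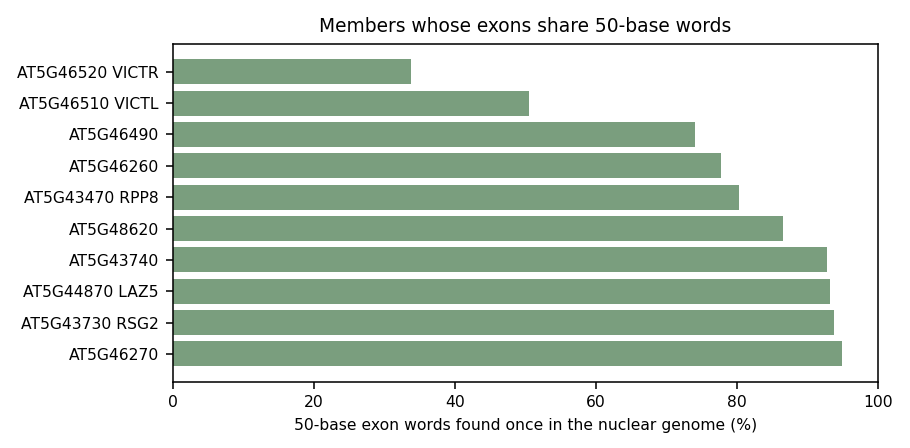
Share of 50-base exon words found once in the nuclear genome (%, horizontal axis from 0) for the 10 members under 99%, 1 bar per gene. *VICTR* (33.8%) and *VICTL* (50.5%) have the shortest bars, and the other genes lie at 74.1% or above.

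The libraries held 34325097 to 39114300 reads on genes, and a read was found for 24227 to 24570 genes. *S2Lb* itself had 1337 and 1613 normalized counts in wild type and 80.8 and 67.2 in *s2lb-2*, which fits the titles of the libraries, although the genotype label of both *s2lb-2* libraries gives a tagged *SDG2* construct. Marker sums checked the labelled material: the 4 green tissue genes were at 1.43e+06 to 1.77e+06 in each library and lower in both *s2lb-2* libraries, the 3 root hair genes at 1057 to 1847, both guard cell genes at 691 to 787, and the 3 flower genes at 14.9 to 26.9 with *AP1* at 0. The 3 genes of maturing seed were at 399 and 193 in replicates 1 and at 20.4 and 23.8 in replicates 2, so that the replicate numbers differed more than the genotypes. In whole seedlings, fewer cells of a type and less RNA per cell cannot be told apart.

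Values below are normalized counts, that is, reads per gene divided by the size factor of the library, in the order wild type 1, wild type 2, *s2lb-2* 1 and *s2lb-2* 2. Log2 differences are means of *s2lb-2* minus wild type of log2(normalized count + 1), with the standard error (SE) of limma, a linear model fitted over the 23723 genes whose mean was 1 or more. Of the 38 members, 35 passed that filter. AT5G45230, a TNL gene of the *RPS4* cluster, and *ADR1-L3* (AT5G47280), a relative of the helper receptor *ADR1*, had 0 reads in all 4 libraries, where 3 reads would be a CPM (reads scaled to a common library total) of 0.0767 to 0.0874. AT5G48770, another TNL gene, had reads only in *s2lb-2* 2 (2.07 normalized counts). AT5G48775, on the other strand, overlaps it by 4115 bases and had 9.45, 21.4, 22.7 and 29.0. Which strand the counting used was not given in the sources used here, so the low count of AT5G48770 is uncertain.

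Both *s2lb-2* libraries lay above both wild-type libraries for 11 of the 35 members (31.4%) and below them for 10 (28.6%), and the groups overlapped for the other 14. Over all tested genes, 24.8% lay above and 24.7% below, and 49.5% did one or the other. The genotypes were apart by at least 1 on the log2 scale for 8 members (22.9%), against 7.83% of all tested genes. At an adjusted p under 0.01 in limma 1 member was called higher and 0 lower (0.0632% and 0.059% of all genes), with 0.05 as the limit 3 were higher and 2 lower (0.674% and 0.923%), and at an unadjusted p under 0.05 the numbers were 8 and 6 (8.46% and 8.90%). DESeq2, run on reads recovered from the values, called 5 and 2 members at 0.01 (1.48% and 1.93% of all genes) and 5 and 3 at 0.05 (2.55% and 3.07%). The quasi-likelihood test of edgeR called 1 and 0 at 0.01 (0.0885% in either direction) and 4 and 2 at 0.05 (0.704% and 1.04%). Without any 1 of the 4 libraries (wild type 1, wild type 2, *s2lb-2* 1 or *s2lb-2* 2), limma called 0 members at 0.05, and 5 to 8 were higher and 3 to 4 lower at an unadjusted p under 0.05 (4.41% to 7.15% and 5.39% to 6.75% of all genes). Because the members were chosen with this contrast known, nothing is read from these counts.

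The median log2 difference of the 35 members was 0.16, against -0.00 for all genes tested, and their range was -1.22 to 7.12. For 20 of the 35 the difference was under 0.5 in either direction. The 15 wider ones came from 7 of the 9 clusters, and the 8 of at least 1 from 6 of them, as the plot of all members shows. They were not evenly spread. In the *RPS6*/*VICTR* cluster 1 of 7 tested members was under 0.5, and in the cluster from AT5G45440 to AT5G45520 2 of 5 were.

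**Figure D2:**
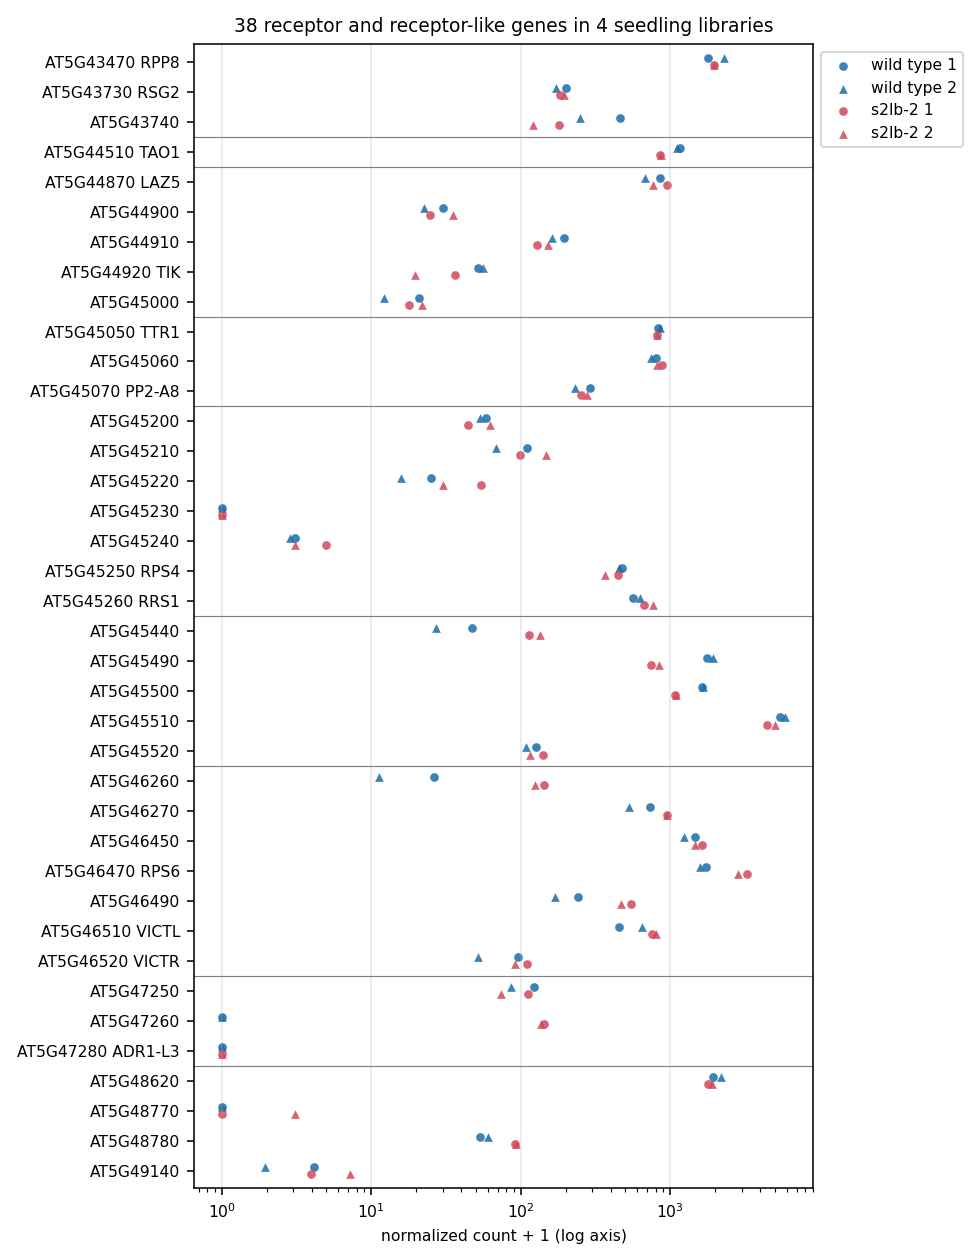
Normalized count + 1 (log axis) of the 38 members in the 4 libraries, in the order of the chromosome, with horizontal lines between clusters; blue marks wild type and red *s2lb-2*, circles replicate 1 and triangles replicate 2. The red points stand apart from the blue ones in AT5G45440, AT5G45490, AT5G46260 and AT5G47260, and most other genes have both colours close together.

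The cluster of AT5G47260 held the widest difference. AT5G47260 encodes an NB-ARC protein of 948 residues, lies at chr5:19189411-19192516 on the plus strand, and had 0 and 0 normalized counts in wild type and 141 and 135 in *s2lb-2*. With 3 reads over the wild-type libraries as the floor, it was at least 93.5-fold higher in *s2lb-2*, where 274 reads were counted in all. All of its exon words were unique, and no annotated gene overlapped it. The neighbour before it, AT5G47250, an NB-ARC and leucine-rich repeat gene 525 bases away on the other strand, had 121, 84.5, 111 and 72.4, so that its genotypes overlapped. The neighbour after it was *ADR1-L3* with 0 reads, so the counts of AT5G47260 in *s2lb-2* had no counterpart in the members on either side.

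In the cluster from AT5G46260 to *VICTR*, which spans 114 kb and holds 7 TNL genes, all 7 log2 differences were above 0 and 5 of the 7 genes had both *s2lb-2* libraries above both wild-type ones, against 24.8% of all tested genes. Since the members were chosen with this contrast known, nothing is read from the count. *RPS6* (AT5G46470), the TNL receptor for resistance to *Pseudomonas syringae* carrying HopA1, had 1719 and 1574 in wild type and 3251 and 2841 in *s2lb-2*. Its mean was 1646 ± 103 in wild type and 3046 ± 290.2 in *s2lb-2* (SD, n = 2), with a fold of 1.85 and a log2 difference of 0.89 (SE 0.10). With 99.8% of its words unique, *RPS6* was among the least shared genes of the cluster.

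AT5G46490, the next TNL gene after *RPS6*, had 240.4 and 167 in wild type and 545 and 464 in *s2lb-2*, 2.48-fold more on average (log2 difference 1.32, SE 0.21). AT5G46260, at the other end of the cluster, had 25.2 and 10.2 in wild type and 143 and 124 in *s2lb-2*, 7.54-fold more (log2 difference 2.97, SE 0.45; 3.58 without wild type 1 and 2.36 without wild type 2). The genotypes were well apart in both genes, which are the pair with the shared run of 300 bases shown above. AT5G46500, a gene annotated as similar to *VICTR* that is not a member and shares 5.60% of the words of AT5G46260, had 12.6, 29.7, 204 and 142.

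AT5G46270, beside AT5G46260, had 729, 528, 947 and 956, and *VICTL* had 451, 641, 754 and 797, both with the genotypes apart. *VICTR*, which is named for a variable growth response of roots to a compound, had 94.5, 51.1, 109 and 91.0, and AT5G46450 had 1473, 1238, 1619 and 1461. In these last 2 genes wild type 1 reached into the range of *s2lb-2*. The 20 other genes tested within the span had log2 differences of -1.21 to 3.06, the highest being that of AT5G46500, with 6 of them higher in both *s2lb-2* libraries and 2 lower. For the 9 of them with a mean of at least 100 the range was -0.47 to 0.27. AT5G46500 lies under that mean, as do the members AT5G46260 and *VICTR*.

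A gene on chromosome 1, AT1G31540, also a TNL gene, shared 79 words of 50 bases with AT5G46490, 33 with AT5G46260, 26 with AT5G46270 and 6 with *VICTR*. It had 771 and 606 in wild type and 2023 and 1031 in *s2lb-2*. The words that it shares are at most 2.72% of those of a member, and their part in the difference of the members was not tested.

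In the cluster from AT5G45440 to AT5G45520, 1 gene was higher in *s2lb-2* and 3 of the other members were lower, with no overlap of the genotypes (24.8% and 24.7% of all tested genes). AT5G45490, an NB-ARC protein of 354 residues without annotated repeats, had 1749.7 and 1919 in wild type and 741 and 839 in *s2lb-2*. Its mean was 1834 ± 119.8 in wild type and 789.7 ± 69.3 in *s2lb-2* (SD, n = 2), 2.32-fold lower, with a log2 difference of -1.22 (SE 0.11). Both genes annotated over it (AT5G45472 and AT5G45480) had under 2 normalized counts in each library. AT5G45472 lies on the same strand and overlaps it by 2017 bases. Reads that lie over both genes are set aside by the counting mode, so these low counts do not measure them. The values of AT5G45490 likewise rest on its parts that do not overlap.

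AT5G45500, which lies 15 bases beyond the end of AT5G45490 on the other strand, had 1621 and 1651 in wild type and 1067 and 1088 in *s2lb-2*, 1.52-fold lower (log2 difference -0.60, SE 0.08). The replicates of both genotypes lay close together, and the gap between genotypes was many times their spread. AT5G45510, a leucine-rich repeat gene, had 5456, 5882, 4437 and 5027, lower in both *s2lb-2* libraries but by a small step (log2 difference -0.26, SE 0.09).

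AT5G45440, an NB-ARC protein of 346 residues whose gene lies 15.4 kb before AT5G45490, had 46.2 and 26.01 in wild type and 112 and 133 in *s2lb-2*, 3.403-fold more (log2 difference 1.79, SE 0.33). AT5G45520, the last gene of the cluster, had 126, 108, 139 and 115 with overlapping genotypes. Of the 8 other genes in the 41.6 kb of this cluster 4 were tested, with log2 differences of 0.05 to 2.74. The highest was that of AT5G45450, the gene after AT5G45440, which had 0, 0, 9.85 and 3.10, and the lowest that of AT5G45460, the only one with a mean of at least 100.

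**Figure D3:**
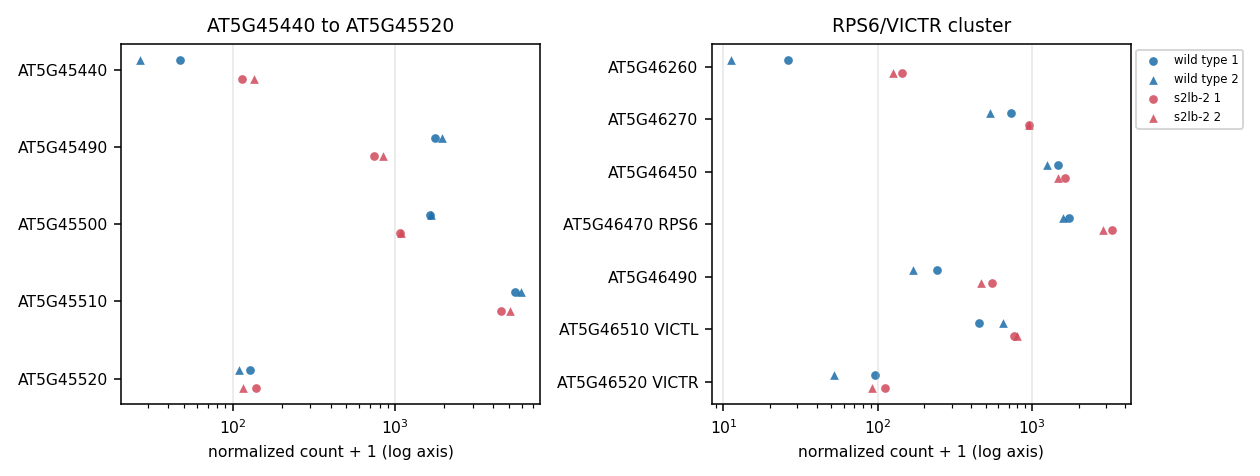
Normalized count + 1 (log axis) of the members of the cluster from AT5G45440 to AT5G45520 (left) and of the *RPS6*/*VICTR* cluster (right) in each library; blue marks wild type and red *s2lb-2*, circles replicate 1 and triangles replicate 2. On the left AT5G45490 and AT5G45500 have the red points lower and AT5G45440 has them higher, and on the right no member has both red points below both blue ones.

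In the head-to-head pairs of *RPS4* with *RRS1* and of *TTR1* with AT5G45060, the partners differed little and in opposite directions. *RPS4*, which with *RRS1* detects AvrRps4 and PopP2, had 475, 456, 445 and 363 (log2 difference -0.21, SE 0.14), and *RRS1* had 562, 626, 669.8 and 763 (log2 difference 0.27, SE 0.12). In the other pair *TTR1* had 826, 853, 811 and 814 (log2 difference -0.05, SE 0.09), and AT5G45060 had 802, 740.3, 875 and 818 (log2 difference 0.13, SE 0.10). In each of these pairs the gene with the minus strand was lower and that with the plus strand higher in both *s2lb-2* libraries, by steps that were small beside the level of the genes. Over all tested genes 24.7% lay below and 24.8% above, and nothing is read from the strands. *PP2-A8* (AT5G45070), a TIR protein of the phloem protein family that lies after AT5G45060, had 291, 230.4, 250.2 and 276 with overlapping genotypes.

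The other TNL genes of the *RPS4* cluster were at a low level. AT5G45220 had 24.1 and 14.9 in wild type and 53.2 and 29.0 in *s2lb-2*, 2.11-fold more (log2 difference 1.01, SE 0.44), and the gap between the nearest libraries of the genotypes was smaller than that between its *s2lb-2* replicates. AT5G45200 (43.3 to 61.0), AT5G45210 (66.9 to 146) and AT5G45240 (1.86 to 3.94) had overlapping genotypes.

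In the *RPP8* region, AT5G43740, a CNL gene, had 457 and 249 in wild type and 179 and 119 in *s2lb-2*, 2.37-fold lower (log2 difference -1.20, SE 0.35). The 2 wild-type libraries lay farther from each other than the genotypes did at their nearest libraries, and without 1 library the log2 difference ranged from -1.64 to -0.77. *RSG2* (AT5G43730), the CNL gene just before it that shares 4.94% of its own words with AT5G43740, had 199, 171, 181 and 192, and *RPP8*, the receptor for resistance to *Hyaloperonospora arabidopsidis*, had 1780.1, 2273, 1971 and 1965. Neither had genotypes apart. AT5G43725, a gene on the strand of *RSG2* that overlaps it by 4045 bases, had 42.0, 53.9, 23.6 and 29.0. The counting mode named in the methods sets aside reads that lie over more than 1 gene, so both values rest on the parts that do not overlap.

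*TAO1* (AT5G44510), a TNL gene that adds to the response to the effector AvrB, stands alone in the interval. It had 1152 and 1115 in wild type and 859 and 867 in *s2lb-2*, 1.31-fold lower (log2 difference -0.39, SE 0.09), with replicates close together. A gene on the other strand, AT5G44500, overlaps it by 278 bases and had 276 to 324 in the 4 libraries.

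*LAZ5* (AT5G44870), a TNL gene known from cell death in the *acd11* mutant, had 858, 679, 954 and 760.2 with overlapping genotypes. Among the short TIR genes that follow it, *TIK* (AT5G44920) had 50.4 and 54.8 in wild type and 35.5 and 18.6 in *s2lb-2*, 1.95-fold lower (log2 difference -1.002, SE 0.38). *TIK* lies wholly within AT5G44930 on the other strand, which had 273, 244, 168 and 214 and was lower in both *s2lb-2* libraries as well, and which strand the counting used was not given in the sources used here. AT5G44910 had 193, 161, 127 and 151, lower in *s2lb-2*, and AT5G44900 (21.4 to 34.1) had overlapping genotypes. So did AT5G45000 (11.1 to 20.7), which is annotated as a TNL gene.

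At the far end of the interval, AT5G48620, the CNL gene that shares words with *RPP8*, had 1923, 2176, 1782 and 1904 (log2 difference -0.15, SE 0.10). AT5G48780, a TIR and NB-ARC gene without annotated repeats, had 52.5 and 59.5 in wild type and 90.6 and 92.0 in *s2lb-2*, 1.63-fold more (log2 difference 0.70, SE 0.22), with both genotypes tight. AT5G49140 had 0.929 to 6.21 with overlapping genotypes.

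Levels of different genes were compared per length, as TPM (recovered reads divided by exon length and scaled to the same total in each library). In wild type the order of mean TPM was led by AT5G45510 (56.8), AT5G45490 (44.3) and AT5G45500 (24.4), none of them a full-length TNL or CNL gene. *RPP8* (22.2) and AT5G48620 (21.1) followed, and *RPS6* (14.2) and *TAO1* (12.1) came after AT5G46450 (15.02). The replicates of neighbours in this order overlapped for AT5G45500 with *RPP8*, for *RPP8* with AT5G48620 and for AT5G46450 with *RPS6*. In *s2lb-2* the mean TPM of AT5G45490 was 19.5 and that of *RPS6* 26.8, so that the order of these genes was turned around, and AT5G47260 was at 2.14. TPM divides by the whole exon length, so the levels of genes with shared words can be underestimated. The same holds for genes that another gene overlaps on the same strand, as with AT5G45490.

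The interval held 710 other genes, of which 523 were tested. For 137 of them (26.2%) both *s2lb-2* libraries were above both wild-type ones and for 151 (28.9%) below, and 9 and 17 had an adjusted p under 0.05 in limma. Differences of over 2 on the log2 scale, which 2 members had, were seen in both directions among these other genes, as the plot along the interval shows. A TIR gene that was not among the members, AT5G45090, had 0, 0, 5.91 and 3.10, and a second, AT5G45080, had 28.3, 18.6, 43.3 and 29.0.

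**Figure D4:**
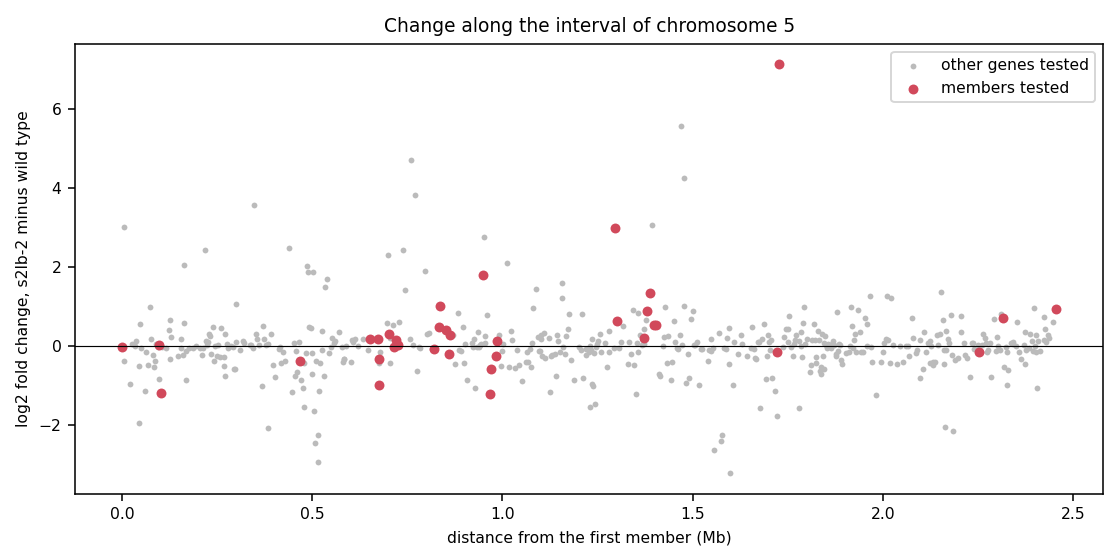
Log2 difference of *s2lb-2* minus wild type (vertical axis) against the distance from the start of *RPP8* in Mb, 1 point per tested gene, with the 35 tested members in red and the 523 other genes in grey. AT5G47260 is the highest point at 7.12, the members of the *RPS6*/*VICTR* cluster all lie above 0, and grey points lie far from 0 on both sides.

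Outside the interval, 172 genes were annotated with a TIR or NB-ARC domain and 146 of them were tested. In 60 (41.1%) both *s2lb-2* libraries were higher and in 14 (9.59%) lower, against 24.8% and 24.7% of all tested genes. The median log2 difference was 0.24, and 4 of those that were higher had an adjusted p under 0.05 in limma. Members were lower in a share of 28.6%, and 2 of them had an adjusted p under 0.05 and a lower level, namely AT5G45490 and AT5G45500. The sets are not alike, since the members include 3 genes with neither domain. Of these, AT5G45500 and AT5G45510 are among the lower members. All other lower members carry a TIR or NB-ARC domain, among them AT5G45490, AT5G43740 and *TAO1*. The difference between the sets was not tested, since the members were not drawn independently of these values. The gene with a TIR or NB-ARC domain nearest before the interval, AT5G41750, had 62.98, 26.9, 906 and 201, and the one nearest after it, AT5G51630, had 422, 343, 125 and 237.

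Of 9 genes of the EDS1 family and of the helper receptors that TNL proteins signal through, 8 were tested. Their median log2 difference was 0.34. Both *s2lb-2* libraries were higher for 5 of them and lower for 0, against 24.8% and 24.7% of all tested genes. This list was chosen with earlier results of these data known, so nothing is read from the count. AT5G66910 was the single gene of this list past an adjusted p under 0.05 in limma (291 and 265 in wild type, 507 and 562 in *s2lb-2*, log2 difference 0.94, adjusted p = 0.0413). AT5G66890, AT5G66900 and AT5G66910 come after *S2Lb* (AT5G66240) in the gene numbering of chromosome 5. *S2Lb* ends at base 26468484 of the 26975502 bases of that chromosome. AT5G66900 and AT5G66910 are among the 5 higher genes. For them, loss of *S2Lb* and Nossen sequence kept around it cannot be told apart. *EDS1*, the lipase-like protein downstream of TNL receptors, had 625, 660 (wild type), 932 and 993 (*s2lb-2*), with an adjusted p = 0.0689 in limma and 0.00417 in DESeq2, and its partner *PAD4* had 447, 247, 404 and 316. *ADR1*, the helper receptor, had 685, 549, 888 and 708, with an adjusted p = 0.337 in limma. Its genotypes were apart, but by a gap smaller than that between the replicates of either genotype.

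Of 7 chaperones and regulators of NLR proteins such as *SGT1B*, *RAR1* and *RIN4*, 0 were called at 0.05 in limma, DESeq2 or edgeR, 1 was higher and 1 lower at an unadjusted p under 0.05 in limma, and the median log2 difference was 0.03. Of 11 genes of the salicylic acid output 10 were tested and 0 were called by these tools, with 1 higher at an unadjusted p under 0.05 in limma. Both *s2lb-2* libraries were higher for 4 and lower for 1, against 24.8% and 24.7% of all tested genes. The median log2 difference was 0.28. *PR1*, the standard reporter of this output, had 0.929 in wild type 2 and 0 in the other libraries, and so was at or under the floor of 3 reads in both genotypes. The gene with the largest log2 difference of this list, *PR2*, had 6.30, 0, 29.5 and 29.0 (log2 difference 3.49). *SARD1* (64.0, 16.7, 135 and 67.2), *FMO1* (1.05, 1.86, 14.8 and 3.10) and *ICS1* (604, 669, 767 and 731) were the others with both *s2lb-2* libraries higher, and *PR5* (202, 179, 153 and 82.7) was the one with both lower. These 5 genes were chosen after their values were seen.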

How the data were processed

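Polyadenylated RNA of 4 libraries was sequenced as 50-base single reads from a strand-specific kit. Per the methods and processing notes of the authors, adapters were removed with trimmomatic, reads were mapped on TAIR10 with STAR 2.5.4b and counted on Araport11 genes with its GeneCounts mode, which takes uniquely mapped reads over a single gene, and the deposited signal is the count per gene divided by the size factor of DESeq2. The strand column of the counts was not given in the sources used here. The comparison deposited by the authors (mean, log2 fold change, error, statistic and p-values) was not used.

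The 38 members and all gene lists were chosen with earlier results of these data known. Multiplying by the size factors (wild type 0.953 and 1.08, *s2lb-2* 1.02 and 0.967) gave whole reads for 100% of values (tolerance 1e-06), and 0 other columns of values were present. As the values were normalized, limma 3.58.1 (lmFit, eBayes with a trend, genotype only, R 4.3.3) was run on log2(normalized count + 1) of the 23723 genes whose mean was 1 or more, with Benjamini-Hochberg adjustment over all of them. The quasi-likelihood test of edgeR 4.0.16 on recovered reads was an alternative chosen after seeing the data. At an adjusted p under 0.01 it called 42 genes, limma 29 and DESeq2 1.42.0 730. The main limma fit, DESeq2 and the quasi-likelihood test of edgeR were tested on simulated data, and the other alternatives were not.

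All 4 values were given, by rule, for members with a limma adjusted p under 0.05 and for those whose genotypes were apart by at least 1 on the log2 scale with a mean of at least 10. The words matching receptors elsewhere were narrowed to TIR and NB-ARC after broader words were seen to take in other families. Annotation, exon lengths and sequences came from TAIR10.1 of RefSeq, to which 37051 of 37336 identifiers were matched, and TPM used exon lengths. The floor of 3 reads covers counting error only. The seed batches were different, and precision is limited by the 2 libraries per genotype. Alternatives were other pseudocounts, filters, normalizations and tests, a replicate block, and fits without each library.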

Additional observations from a re-analysis of the deposited data

How the results depend on the processing

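In limma 1 member was higher and 0 lower at an adjusted p under 0.01, and 3 were higher and 2 lower at 0.05. DESeq2 and the likelihood ratio test of edgeR gave 5 higher and 2 lower at 0.01 and 5 higher and 3 lower at 0.05, and limma-voom and a pseudocount of 0.1 gave 0 higher at 0.01 (8 higher at an unadjusted p under 0.05 in both). Over all genes the calls at 0.01 went from 1 with a pseudocount of 0.1 through 29 in limma and 95 with library totals to 730 in DESeq2 and 939 in the likelihood ratio test. Without 1 library these counts ranged from 0 to 0 in each direction, for members and all genes alike, where the spread of a single library was taken from the other genotype.

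With the replicate block 4 members were higher and 3 lower at 0.01 and 7 higher and 4 lower at 0.05, against 1.18% and 1.61%, and 3.89% and 4.76%, of all genes. Same-numbered samples deviated together (r = 0.18 over 23723 genes, which are not replicates, and 0.41 over the 17913 with a mean of at least 50), and the genes of maturing seed followed the replicate number. The summed EDS1 family and helper receptors were at 7300 (wild type) and 8519 (*s2lb-2*) in replicates 1 and at 5672 and 7071 in replicates 2. The salicylic acid output was at 3302 and 2934 against 2236 and 2376. For the chaperones and regulators, replicate 1 was the higher in wild type only. The methods state different seed batches for the replicates of each genotype but not that same-numbered libraries of both genotypes shared one, so with 2 pairs the numbers were not taken as a pairing.

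The 10 members given with all values by rule kept their sign in 15 alternatives, and of all 35 tested members between 1 and 6 changed sign without 1 library and 0 under the other 11 alternatives. The log2 difference of AT5G47260, which has 0 reads in wild type and so depends on the pseudocount, ranged from 7.09 to 10.4. Without 1 library, AT5G46260 ranged from 2.36 to 3.58, AT5G45440 from 1.39 to 2.19, AT5G46490 from 1.06 to 1.58, *TIK* from -1.45 to -0.55, AT5G45220 from 0.59 to 1.44, *RPS6* from 0.79 to 0.98, AT5G45490 from -1.31 to -1.13 and AT5G45500 from -0.62 to -0.59. Members at a few reads, and those with shared exon words, are limited by depth and by read length.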
